A study of Homo sapiens with 10 samples.

Results

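The regions described here are 225 stretches of the human genome at which wild-type ERG and EWS were both mapped in RWPE1 cells. They were chosen by 3 peak lists: the peaks of the 2 wild-type ERG replicates were merged wherever they shared a base, which gave 3738 ERG regions, and a region was kept when at least 1 bp of it lay under a peak of EWS from cells with the same ERG. They make up 6.02% of the merged regions, and the other 3513 carried no EWS peak. The presence of ERG and EWS at these regions, and their widths, are thus given by the choice and are described with no test.

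ERG is a transcription factor of the ETS family, whose members recognise DNA with a GGAA core. It is not made in normal prostate epithelium, and it is switched on in many prostate cancers by a fusion of its gene to the androgen-driven TMPRSS2 gene. EWS is an RNA-binding protein of the FET family that can act as a co-activator of transcription, and it is best known as the fusion partner of ETS factors in Ewing sarcoma. The study asked whether EWS accompanies ERG on chromatin, and whether this depends on a residue of ERG that was replaced in the mutant P436A.

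ChIP-seq, which maps the DNA bound by a protein through an antibody against it, was performed in 2 human prostate lines. RWPE1 is an immortalised line from normal prostate, and it stably expressed ERG P436A (1 ERG and 1 EWS list) or wild-type ERG (2 ERG replicates and 1 EWS list), under selection with puromycin and hygromycin. VCaP, a prostate cancer line that makes ERG from its own TMPRSS2 fusion, gave 1 ERG and 1 EWS list. The labels do not describe the vector or its promoter, nor whether the RWPE1 lines were pools or single clones. They also leave unsaid if the 2 wild-type ERG replicates were grown separately.

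The lists hold only positions in genome build hg19, with no height or p-value per peak, so read depth is unknown and the strength of binding cannot be compared. They ranged from 1746 peaks (ERG P436A) to 9500 (VCaP EWS), 30301 in all. Their widths differed too. The widest peak was of about 500 bp in the ERG P436A, EWS P436A and VCaP EWS lists. It was of 5574 and 5985 bp in wild-type ERG replicates 1 and 2, 7061 bp in wild-type EWS and 184765 bp in VCaP ERG. Overlaps of 1 bp are thus not like for like between lists, and the reason for these widths was not tested. Each group but wild-type ERG had a single list, and regions of a list are not replicates, so shares are given with exact (Clopper-Pearson) 95% intervals that cover counting error only, and no test was made between conditions. Genes and DNA sequences at the regions were not analysed here, as the annotation at hand is of a later build.

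As each region had to overlap an EWS peak, the distance between their centres was bounded by their widths, and it is given as a description. The centre of the EWS peak lay at a median of 106 bp from the centre of the ERG region (quartiles 37.5 and 267 bp). In 107 regions the centres were within 100 bp (47.6%, 40.9% to 54.3%), and in 167 they were within 250 bp (74.2%, 68.0% to 79.8%). EWS peaks covered a median of 85.5% of the ERG region, and at least 0.5 of it in 195 of the 225. The overlap was under 100 bp in 5 regions. The regions were served by 222 of the 5703 EWS peaks (3.89%, 3.41% to 4.43%), of which 4 EWS peaks spanned more than 1 region and 8 regions shared a peak in this way.

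**Figure D1:**
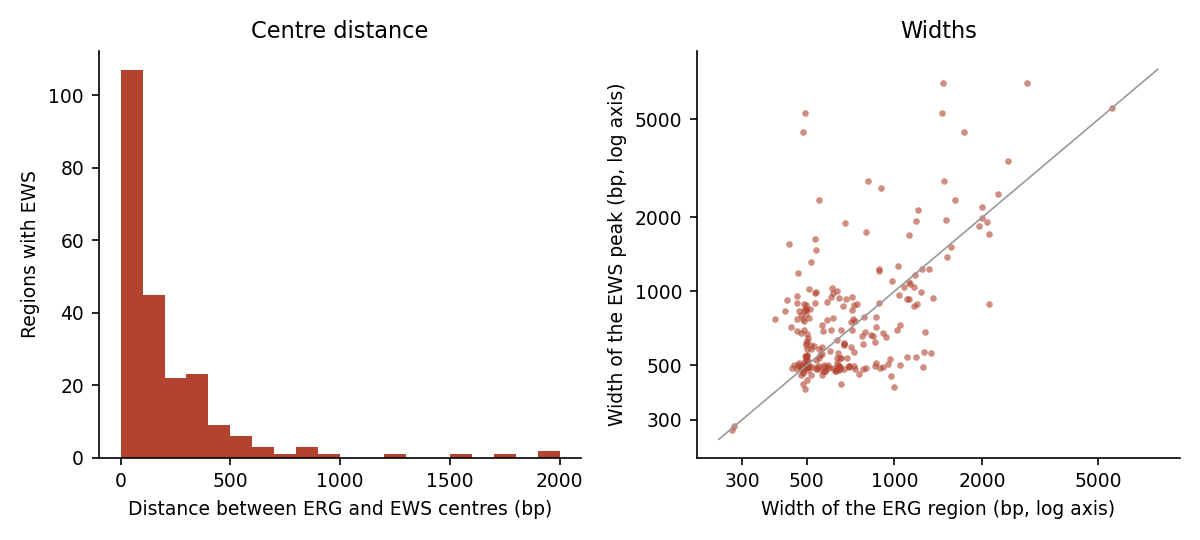
Left, number of the 225 regions by the distance in bp between the centre of the ERG region and that of its EWS peak, in steps of 100 bp. Right, width of the EWS peak against width of the ERG region, both in bp on log axes, 1 point per region, with the line of equal width. Of the 225 regions, 107 fall in the first step, and the points lie on both sides of the line.

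Widths of the 225 regions ran from 278 to 5574 bp with a median of 630 bp, against 329 to 5985 bp and a median of 531 bp for the regions without EWS. EWS peaks at the regions had a median width of 640 bp, against 499 bp for the 5481 EWS peaks elsewhere. A wider interval has more room to overlap another, and part of this difference is built into the choice. The widest region was chr2:133026005-133031578, with 5574 bp, of which EWS covered 96.3%, and the next was chr9:68417261-68420114 with 2854 bp, all of it under EWS. Neither had a peak in a list other than the 2 that chose it.

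Some regions were close to the limit of the choice. Just inside it, chr1:202253058-202253642 shared 10 bp with an EWS peak and chr1:144014441-144015140 shared 16 bp. Just outside it, chrY:58978393-58979146 lay 5 bp from an EWS peak and chr1:188452119-188452653 lay 28 bp from one. Of the regions without EWS, 64 had an EWS peak within 1 kb (1.82%, 1.41% to 2.32%) and 405 within 10 kb (11.5%, 10.5% to 12.6%).

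The 2 wild-type ERG replicates contributed unequally. Of the 225 regions, 176 held a replicate 1 peak (78.2%, against 50.9% of all merged regions) and 63 held a replicate 2 peak (28.0%, against 52.2% of all merged regions). By source, 162 came from replicate 1 only, 49 from replicate 2 only and 14 from both. Among the regions without EWS these numbers were 1624, 1788 and 101. The EWS list thus met more of replicate 1 than of replicate 2, and the main shares below are also given by replicate.

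The 14 regions with both replicates are those where both ERG lists had a peak. They include chr17:41399610-41401562, the sole region with a peak in 6 of the 7 lists, all but VCaP EWS. It is 1953 bp wide and lay 16.1 Mb from the centromere gap. EWS covered 93.2% of it, and the centres of ERG and EWS were 78.5 bp apart. On chromosome 1, chr1:91852643-91853286 and chr1:203857812-203859163 also had an ERG P436A peak and no EWS P436A peak, whereas chr1:94158710-94159345 had neither. On chromosome 9, chr9:91392489-91393458 had ERG P436A alone of the other lists, and chr9:79186196-79187313 had EWS P436A alone. At chr20:62165177-62165768 ERG P436A was found again, and at chr10:127579990-127580871 and chr21:9826686-9828169 the VCaP EWS list was the only other one with a peak. On chromosome 5, chr5:90606969-90608219 and chr5:142641166-142641742 had no further peak.

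Most of the 225 regions were found in no list beyond the 3 that chose them. Agreement was low between the 2 wild-type ERG replicates too. Both had a peak at 14 of the 225 (6.22%) and at 101 of the 3513 without EWS (2.88%). Absence from a further list thus cannot be told apart from such variation between lists. Regions with no peak of ERG P436A, EWS P436A, VCaP ERG or VCaP EWS numbered 177 (78.7%, 72.7% to 83.8%), against 2953 of the 3513 without EWS (84.1%, 82.8% to 85.3%) and 83.7% of all merged regions. Counted over the 7 lists, 172 regions had a peak in 2 lists, 36 in 3, 15 in 4, 1 in 5 and 1 in 6.

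Mutant ERG was found at 28 of the 225 regions (12.4%, 8.43% to 17.5%). This stood against 274 of the 3513 regions without EWS (7.80%, 6.93% to 8.74%) and 8.08% of all merged regions, with intervals that overlap slightly. The difference was not the same in the 2 replicates. Among regions of replicate 1 only, ERG P436A was at 15 of 162 with EWS (9.26%, 5.28% to 14.8%) and 152 of 1624 without (9.36%, 7.99% to 10.9%). Among those of replicate 2 only, it was at 7 of 49 with EWS (14.3%, 5.94% to 27.2%) and 73 of 1788 without (4.08%, 3.21% to 5.11%). Where both replicates had a peak, ERG P436A was at 6 of 14 with EWS (42.9%, 17.7% to 71.1%) and 49 of 101 without (48.5%, 38.4% to 58.7%). The regions of both replicates thus had the largest shares, with or without EWS, and in 1 of the 3 classes, that of replicate 2 only, the intervals with and without EWS did not overlap. With replicate 2 left out altogether, the order turned, at 11.4% with EWS and 11.7% without, and with replicate 1 left out the share with EWS was 20.6%.

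EWS of P436A cells was found at 16 of the 225 regions (7.11%, 4.12% to 11.3%). This stood against 47 of the 3513 regions without EWS (1.34%, 0.985% to 1.78%) and 1.69% of all merged regions, with intervals that do not overlap. The share was larger at the regions with EWS in each replicate class. For replicate 1 only it was 10 of 162 with EWS (6.17%, 3.0% to 11.1%) and 11 of 1624 without (0.677%, 0.339% to 1.21%). For replicate 2 only it was 4 of 49 with EWS (8.16%, 2.27% to 19.6%) and 32 of 1788 without (1.79%, 1.23% to 2.52%), with intervals that overlap. For both replicates it was 2 of 14 with EWS and 4 of 101 without. Conversely, 209 of the 225 regions had no EWS peak in P436A cells. Their EWS list of 1786 peaks was shorter than the 5703 of cells with wild-type ERG, and it lacked wide peaks. Absence from the P436A list thus cannot be told apart from these differences between the lists.

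**Figure D2:**
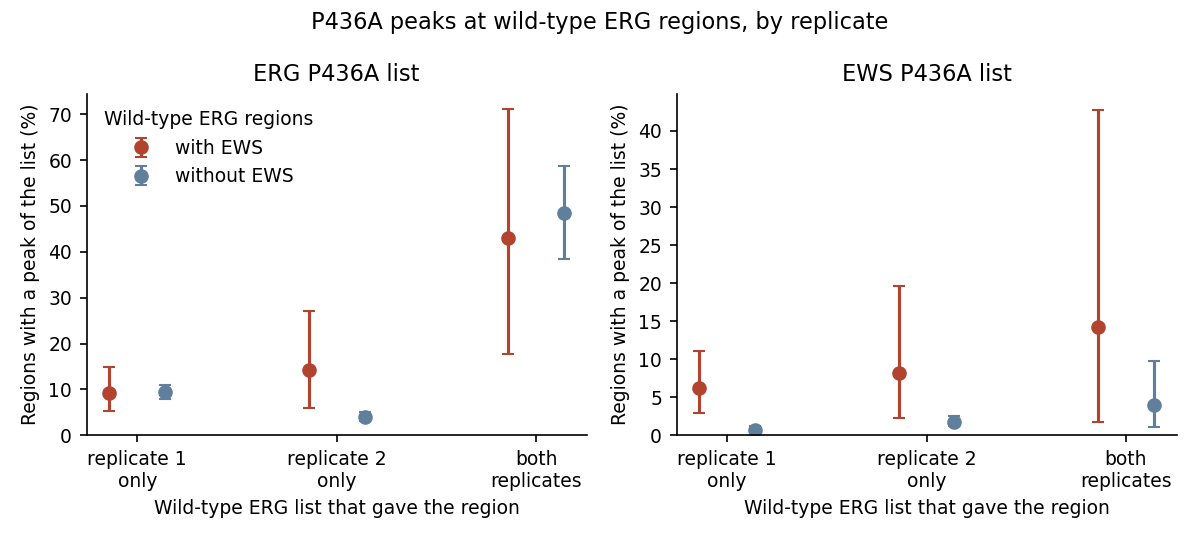
Share of wild-type ERG regions, in percent, with a peak of ERG P436A (left) and of EWS P436A (right), for regions found in replicate 1 only, in replicate 2 only and in both. Points are shares and bars exact 95% intervals, red with EWS and blue without; for ERG P436A the points of replicate 1 only are at 9.26% and 9.36%, and for EWS P436A the red point is above the blue one in all 3 classes.

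Both proteins were found again together at 5 of the 225 regions (2.22%, 0.725% to 5.11%), against 11 of the 3513 without EWS (0.313%, 0.156% to 0.560%). Either was found at 39 (17.3%, 12.6% to 22.9%), against 310 (8.82%, 7.91% to 9.81%). Among the 28 regions with ERG P436A, 5 also had EWS P436A (17.9%, 6.06% to 36.9%), against 11 of 274 among regions without wild-type EWS (4.01%, 2.02% to 7.07%). The 5 regions with both were chr17:41399610-41401562, chr21:9825344-9826154, chr1:144014441-144015140, chr20:29588420-29588954 and chr20:62542306-62542879. Of these, the chromosome 21 region and the first of chromosome 20 lay 1.47 and 0.188 Mb from a centromere gap. In the chromosome 1 region, wild-type EWS covered 2.29% of the ERG interval. At chr20:62542306-62542879 the centres of wild-type ERG and EWS were 3.5 bp apart.

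The share with EWS P436A was larger at the regions with EWS in each class of width. In regions of up to 500 bp, EWS P436A was at 3 of 50 with EWS and 17 of 1327 without (6.0% and 1.28%), and in those over 500 and up to 750 bp at 8 of 101 and 16 of 1544 (7.92% and 1.04%). Over 750 bp it was at 5 of 74 and 14 of 642 (6.76% and 2.18%). The intervals did not overlap in the middle class, and they did in the other two. For ERG P436A the order depended on width. Up to 500 bp, ERG P436A was at 8.0% of the regions with EWS and 2.56% of those without, and over 750 bp at 16.2% and 22.6%.

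Peaks of P436A cells also lay near the regions that they did not touch. Of the 209 regions with EWS and no EWS P436A peak, 24 had such a peak within 10 kb (11.5%, 7.50% to 16.6%), against 135 of the 3466 without EWS (3.89%, 3.28% to 4.59%). Within 100 kb there were 102 (48.8%, 41.8% to 55.8%), against 957 (27.6%, 26.1% to 29.1%). Of the 197 regions with EWS and no ERG P436A peak, 24 had one within 10 kb (12.2%, 7.96% to 17.6%), against 244 of 3239 (7.53%, 6.65% to 8.50%), with intervals that overlap. Within 100 kb there were 98 (49.7%, 42.6% to 56.9%), against 1057 (32.6%, 31.0% to 34.3%). The part of this density in the direct overlap was not tested.

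For ERG of VCaP the order was the opposite. VCaP ERG peaks lay at 6 of the 225 regions (2.67%, 0.985% to 5.71%), against 225 of the 3513 without EWS (6.40%, 5.62% to 7.27%) and 6.18% of all merged regions, with intervals that just overlap. VCaP EWS peaks lay at 9 (4.0%, 1.85% to 7.46%), against 80 (2.28%, 1.81% to 2.83%) and 2.38% of all merged regions. No region had both VCaP proteins. Of the 219 regions with EWS that no VCaP ERG peak touched, 63 had one within 100 kb (28.8%, 22.9% to 35.3%), against 1372 of 3288 without EWS (41.7%, 40.0% to 43.4%). Of the 6 regions with VCaP ERG, 3 were near a centromere gap, and so were 4 of the 9 with VCaP EWS.

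**Figure D3:**
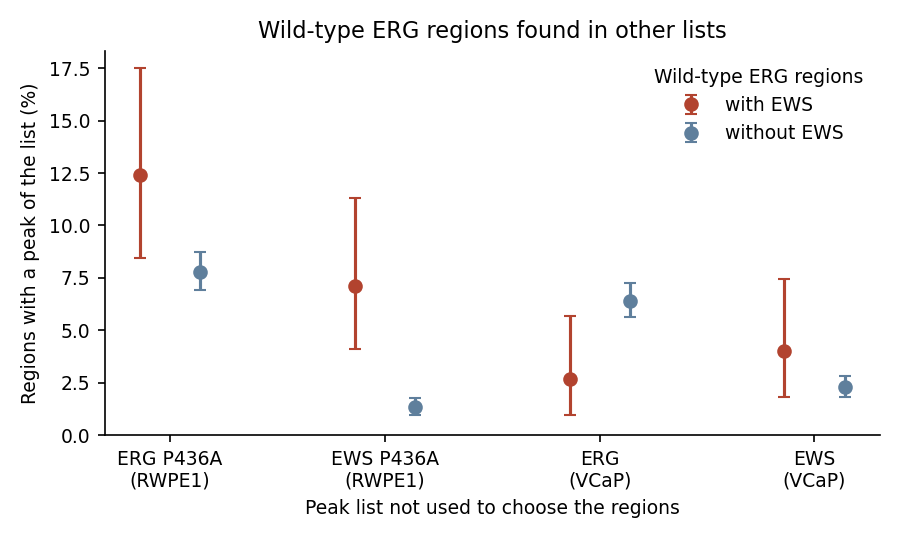
Share of wild-type ERG regions, in percent, with a peak in each of the 4 lists that were not used to choose them, for the 225 with EWS (red) and the 3513 without (blue). Points are shares and bars exact 95% intervals; the intervals are apart only for EWS P436A, at 7.11% and 1.34%.

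Centromere gaps are the unsequenced blocks of hg19 that stand for centromeric DNA, and the sequence beside them is rich in repeats and duplicated segments. Within 5 Mb of a gap lay 44 of the 225 regions (19.6%, 14.6% to 25.3%), against 161 of the 3513 without EWS (4.58%, 3.92% to 5.33%) and 5.48% of all merged regions. The P436A lists had 7.33% (ERG) and 7.22% (EWS) of their peaks in these flanks, and the 3 wild-type lists behind the choice had 6.42% (ERG replicate 1), 4.40% (ERG replicate 2) and 6.19% (EWS). The interval for the 225 regions lay above the share of each of these lists. The flank share was again unequal between replicates: 39 of 162 regions of replicate 1 only (24.1%, 17.7% to 31.4%), against 80 of 1624 without EWS (4.93%, 3.93% to 6.09%), and 4 of 49 of replicate 2 only (8.16%, 2.27% to 19.6%), against 79 of 1788 (4.42%, 3.51% to 5.48%).

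The 44 regions lay on 12 chromosomes, with 13 on chromosome 20, 8 on chromosome 16, 6 on chromosome 2 and 5 on chromosome 21. Those of chromosome 20 were 13 of 65 flanking ERG regions there, those of chromosome 16 were 8 of 12, and those of chromosome 21 were 5 of 11. Replicate 1 had a peak at 40 of the 44 (90.9%) and replicate 2 at 5 (11.4%), whereas the 161 flanking regions without EWS were shared evenly, at 50.9% and 50.3%. ERG P436A was at 2 of the 44 (4.55%, 0.555% to 15.5%), against 19 of the 161 (11.8%, 7.26% to 17.8%). EWS P436A was at 4 of the 44 (9.09%, 2.53% to 21.7%), against 5 of the 161 (3.11%, 1.02% to 7.10%).

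Away from centromeres, 181 of the 225 regions were left. There ERG P436A was at 26 of 181 (14.4%, 9.60% to 20.3%), against 255 of 3352 without EWS (7.61%, 6.73% to 8.56%), and EWS P436A was at 12 (6.63%, 3.47% to 11.3%), against 42 (1.25%, 0.904% to 1.69%). VCaP ERG was at 3 of 181 (1.66%, 0.343% to 4.77%), against 214 of 3352 (6.38%, 5.58% to 7.27%). The intervals for ERG P436A, EWS P436A and VCaP ERG did not overlap there. Those shares pool the replicate classes and were not split by replicate. Regions of replicate 1 only made up 72.0% of those with EWS and 46.2% of those without. Over all places, that class had ERG P436A at 9.26% with EWS and 9.36% without. The gaps are those of the assembly, and on some chromosomes the stretch around them that held no peak of any list was longer. Counted from the ends of that stretch, a setting chosen after the data were seen, the flanks held 54 of the 225 regions (24.0%, 18.6% to 30.1%), against 190 of the 3513 without EWS (5.41%, 4.68% to 6.21%). The 10 regions added were 7 on chromosome 9 between 66482341 and 68434262, 2 on chromosome 1 between 144014441 and 145117583 and 1 on chromosome 16 at 46392577. Outside these wider flanks, EWS P436A was at 8 of 171 regions with EWS (4.68%, 2.04% to 9.01%), against 42 of 3323 without (1.26%, 0.912% to 1.70%), and ERG P436A at 25 (14.6%, 9.69% to 20.8%), against 251 (7.55%, 6.68% to 8.50%). VCaP EWS was then at 2 of 171 (1.17%, 0.142% to 4.16%), against 72 of 3323 (2.17%, 1.70% to 2.72%), the opposite order to that over all regions.

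**Figure D4:**
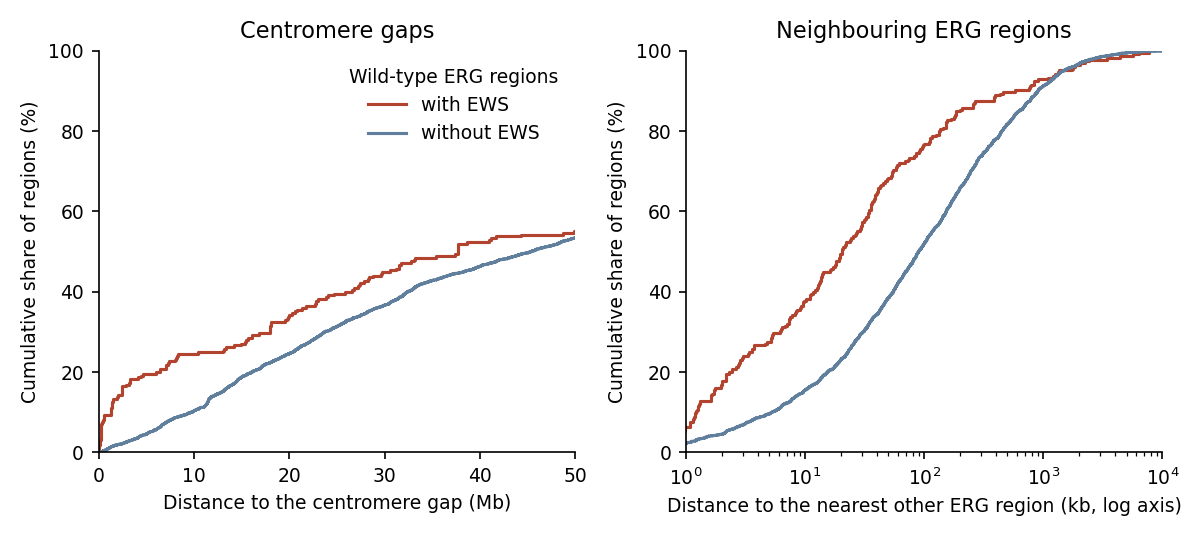
Cumulative share of wild-type ERG regions, in percent, by distance to the centromere gap in Mb (left) and by distance to the nearest other wild-type ERG region in kb on a log axis (right), for regions with EWS (red) and without (blue). At 5 Mb the curves stand at 19.6% and 4.58%, and at 100 kb at 76.9% and 51.9%.

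The 225 regions were crowded. Another of the 225 lay within 1 Mb of 147 of them (65.3%, 58.7% to 71.5%), within 100 kb of 90 (40.0%, 33.5% to 46.7%) and within 10 kb of 46 (20.4%, 15.4% to 26.3%). In runs that left out a replicate, only the regions with EWS that remained were counted as neighbours. Without replicate 1 the 1 Mb share was 20 of 63 (31.7%, 20.6% to 44.7%), and without replicate 2 it was 114 of 176 (64.8%, 57.2% to 71.8%). With only the 14 regions of both replicates kept, it was 0 of 14. Fewer regions leave fewer neighbours to find, so the part of a replicate in this share cannot be told apart from the smaller number of regions. Distance to the nearest wild-type ERG region of any kind, which has the same basis for both groups, had a median of 20.3 kb for the regions with EWS and 89.7 kb for those without. Such a neighbour lay within 100 kb of 173 of the 225 (76.9%, 70.8% to 82.2%), against 1824 of the 3513 (51.9%, 50.3% to 53.6%) and 53.4% of all merged regions. Within 1 Mb the shares were close, at 92.9% (88.7% to 95.9%) and 91.2% (90.2% to 92.1%), with 91.3% of all merged regions. By replicate, the 100 kb shares were 77.8% against 48.8% for replicate 1 only and 73.5% against 54.0% for replicate 2 only.

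Chained at 1 Mb, the 225 regions formed 31 clusters of 2 or more, which held 147 regions, and 78 stood alone.

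Chromosomes differed in the share of ERG regions that carried EWS, which was 6.02% over all. On chromosome Y it was 4 of 6 (66.7%, 22.3% to 95.7%), and on chromosome 21 it was 5 of 35 (14.3%, 4.81% to 30.3%), an interval that holds the share over all. On chromosome 1 it was 68 of 526 (12.9%, 10.2% to 16.1%), and on chromosome 16 it was 12 of 94 (12.8%, 6.77% to 21.2%). On chromosome 20, 35 regions carried it (8.03%, 5.65% to 11%), and the interval holds the share over all. On chromosome 5 it was 15 of 456 (3.29%, 1.85% to 5.37%), although that chromosome held 16.4% of all wild-type EWS peaks, and on chromosome 9 it was 24 of 484 (4.96%, 3.20% to 7.29%). On chromosome 7 it was 2 of 168 (1.19%, 0.144% to 4.23%) and on chromosome 19 it was 2 of 143 (1.40%, 0.170% to 4.96%). On chromosome 18 it was 0 of 23, with an exact interval of 0% to 14.8%. The centromere flanks of 5 Mb held all 4 regions with EWS on chromosome Y and all 5 on chromosome 21. They also held 8 of the 12 on chromosome 16.

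The largest cluster, chr1:195205799-202253642, held 45 of the 225 regions, and 139 of the 3513 without EWS (3.96%). Its span of 7048 kb held 70 ERG P436A and 76 EWS P436A peaks, against 165 replicate 1, 20 replicate 2 and 481 wild-type EWS peaks, and 3 VCaP ERG peaks and 1 VCaP EWS peak. Of its 184 ERG regions 24.5% carried EWS. ERG P436A was at 3 of 45 (6.67%, 1.40% to 18.3%), against 8 of 139 without EWS (5.76%, 2.52% to 11%). This was beside 12.4% of the 225 and 8.08% of all merged regions. EWS P436A was at 3 of 45, against 1 of 139 (0.719%, 0.0182% to 3.94%), beside 7.11% of the 225 and 1.69% of all merged regions. A second cluster on the same arm, chr1:203279276-205267893, held 7 regions beside 21 without EWS, and ERG P436A was at 3 of the 7 (42.9%, 9.90% to 81.6%), against 5 of the 21 (23.8%, 8.22% to 47.2%). EWS P436A was at 0 of the 7 (0% to 41.0%), against 2 of the 21 (9.52%, 1.17% to 30.4%), the opposite order to that over all regions.

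Another 5 clusters were picked for their share of regions with EWS. In the spans chr20:29584050-30008331, chr16:33293721-33964605, chr2:133011693-133034275, chr9:68414636-68434262 and chr2:89852630-89879511, at least 80% of the ERG regions carried EWS, a bound set after the clusters were seen. The last 2 of these spans were named after their values were seen. Together they held 34 regions with EWS and 3 without, and the 2 clusters of chromosome 1 held 52 and 160. This split follows from the bound and from spans that begin and end on a region with EWS, so nothing is read from it. The spans measured 19.6 to 671 kb, against 1989 and 7048 kb on chromosome 1. Their regions had a median width of 1196 bp, against 554 bp on chromosome 1.

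Nearly all ERG peaks of those 5 clusters were of replicate 1. Their spans held 1 ERG P436A and 8 EWS P436A peaks, against 37 replicate 1 peaks, 1 replicate 2 peak and 45 wild-type EWS peaks. VCaP had 2 ERG and 5 EWS peaks there. ERG P436A was at 1 of the 34 regions (2.94%, 0.0744% to 15.3%), beside 8.08% of all merged regions. EWS P436A was at 4 (11.8%, 3.30% to 27.5%), beside 1.69% of all merged regions. Those 4 were 2 of 9 regions in the chromosome 20 span and 2 of 6 in the chromosome 9 span. With so few spans, picked after they were seen, nothing is read from these shares. Of the 34, 22 lay within 5 Mb of a centromere gap, and 28 within 5 Mb of the peak-free stretch around it. The 6 regions of chromosome 9 made this difference, as they lay 18 Mb from the gap of the assembly but within 5 Mb of the end of that stretch. The chromosome 2 cluster at 133 Mb lay 37.7 Mb from its gap.

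**Figure D5:**
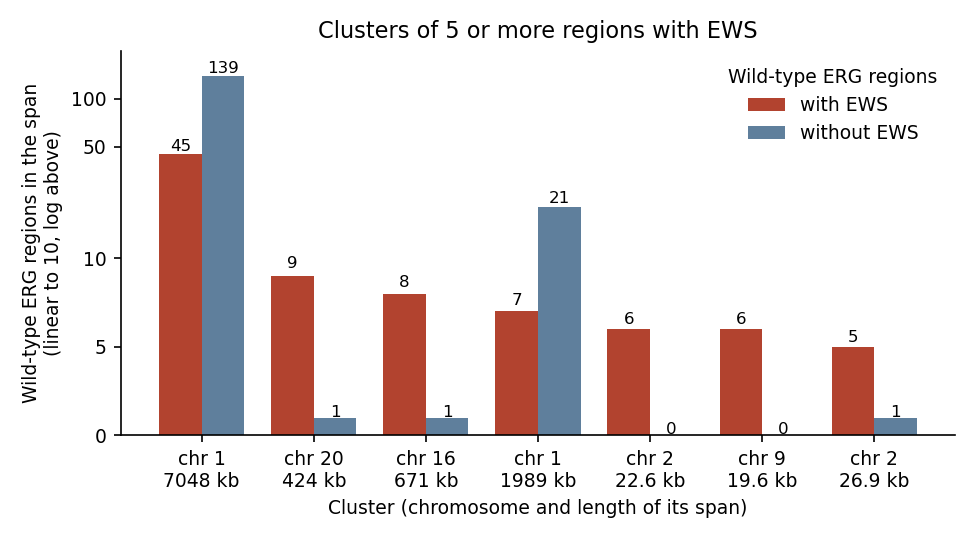
Number of wild-type ERG regions with EWS (red) and without (blue) in the span of each of the 7 clusters with at least 5 regions with EWS, on an axis that is linear to 10 and logarithmic above. On chromosome 1 the blue bars are higher, at 139 and 21 against 45 and 7, and in the other 5 spans, picked for a large share of regions with EWS, the red bars hold 34 of 37 regions.

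With the span of the largest cluster left out, ERG P436A was at 25 of 180 regions with EWS (13.9%, 9.19% to 19.8%), against 266 of 3374 without (7.88%, 7.0% to 8.84%), and EWS P436A was at 13 (7.22%, 3.90% to 12%), against 46 (1.36%, 1.00% to 1.81%). With the centromere flanks left out too, 136 regions with EWS were left. Of these 23 had ERG P436A (16.9%, 11% to 24.3%), against 247 of 3213 (7.69%, 6.79% to 8.66%), and 9 had EWS P436A (6.62%, 3.07% to 12.2%), against 41 of 3213 (1.28%, 0.917% to 1.73%). A neighbouring ERG region within 100 kb was at 93 of the 136 (68.4%, 59.9% to 76.1%), against 1604 of 3213 (49.9%, 48.2% to 51.7%). The intervals for both P436A lists and for a close neighbour did not overlap there, whereas those for VCaP ERG did, at 3 of 136 (2.21%, 0.457% to 6.31%), against 213 of 3213 (6.63%, 5.79% to 7.55%). As above, these intervals count neighbouring regions as independent, and their overlap is a description only. They also pool the replicate classes, with no split by replicate here. Over all places, regions of replicate 1 only had ERG P436A at 9.26% with EWS and 9.36% without.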

How the data were processed

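Peak lists of 7 of the 10 samples were used, and the 3 inputs were not used here. Each deposited list gives chromosome, start and end in base pairs with no header, and its values are positions (no count, score or p-value). Reads were aligned with Bowtie2, version given as 0.12.8, to hg19, per the submitters' processing notes, and no source used here names the peak caller, threshold or control. Starts were read as 0-based, and printed positions are 1-based hg19.

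ERG peaks were merged at 1 bp overlap, and all overlaps needed 1 bp. Centromere gaps came from general knowledge of hg19, rounded to 0.1 Mb, and 0 peaks of any list lay in them more than 0.1 Mb from an edge. Clusters chain regions within 1 Mb. The overlap code was tested on simulated intervals. Named regions were those in both P436A lists, in both replicates or in 6 or more lists (up to 12 each), the 5 largest clusters, the 2 widest and the 2 nearest each side of the choice. One region of chromosome 8 that meets this was left unnamed. The regions and comparisons were chosen with earlier results of these data known. Python 3.11.15, pandas 2.3.3 and SciPy 1.17.1 were used.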

Additional observations from a re-analysis of the deposited data

How the results depend on the processing

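Of 91 values recomputed under other settings, 70 stayed within the interval of the main share (or, for the number of regions, within 1.5 times) and 21 did not. Leaving out a wild-type ERG replicate gave 63 (without replicate 1) or 176 (without replicate 2) regions with EWS, with ERG P436A at 11.4% to 20.6% of them, EWS P436A at 6.82% to 9.52%, VCaP ERG at 2.84% to 3.17%, VCaP EWS at 4.55% to 4.76%, centromere flanks at 7.94% to 22.7%, another such region within 1 Mb at 31.7% to 64.8% and an ERG neighbour within 100 kb at 55.6% to 69.3%. Without replicate 2, ERG P436A was at 11.4% of the regions with EWS and 11.7% of those without, the opposite order to the main one. Restricted to both replicates, 14 regions had ERG P436A at 6 (42.9%), EWS P436A at 2 (14.3%, 1.78% to 42.8%) and VCaP ERG at 1 (7.14%). Of the same 14, VCaP EWS was at 2 (14.3%) and the flanks held 1 (7.14%, 0.181% to 33.9%). ERG P436A was at 48.5% of those without EWS. In these runs neighbours were sought only among the regions kept. Among regions of both replicates alone, 0 of 14 had either kind of neighbour, and 6.93% of those without EWS had an ERG neighbour. With all merged regions as neighbours, an ERG region lay within 100 kb of 11 of the 14 (78.6%) and 67 of 101 without EWS (66.3%). VCaP EWS was not above the regions without EWS when both ERG and EWS had to overlap by 0.5 (2.37% and 2.38%), with peaks set to 500 bp (1.93% and 2.37%) with 0.5 of both VCaP peak and region (0.889% and 1.74%) or outside flanks counted from the peak-free stretch around each gap (1.17% and 2.17%). Flanks of 2 Mb held 13.8% (1.94% without EWS), and flanks counted from that stretch, also set after the data were seen, held 24.0% (5.41%). Another region with EWS lay within 1 Mb of 58.0% under the 0.5 overlap and of 56.7% without the largest cluster, also added after, and within 100 kb or 5 Mb of 40.0% or 81.8%. EWS P436A was above the regions without EWS under every setting run, and so was the flank share. With both replicates required, this rested on 2 of 14 regions for EWS P436A and 1 of 14 for the flanks. With all peaks set to 500 bp, EWS P436A was at 5.80% with EWS and 1.44% without. Under that setting ERG P436A was at 12.1% and 7.83%, and VCaP ERG at 2.90% and 5.71%. The cause of these shifts was not tested. No paired analysis was possible because only wild-type ERG had replicate lists. Depth is unknown, so absence of a peak cannot be told apart from shallow sequencing.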
